A study of Mus musculus with 6 samples.

Results

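The genes examined here encode the DNA replication machinery, a list of 42 genes among the 22380 protein-coding genes of the annotation. They were chosen by name and not by a limit on any measured value, but with earlier results of these data known. They cover the MCM helicase, the origin recognition and licensing factors, the factors and kinase that activate the helicase, the polymerases and primase, the sliding clamp and its loader, the single-strand binding protein, the enzymes that join lagging-strand fragments, topoisomerase II and the enzymes that supply deoxynucleotides. For each gene, the accessible intervals (peaks) within 1 kb of any of its annotated starts, called promoter peaks below, and those within the gene plus 10 kb on either side were collected from the list of 32527 peaks. All 42 genes were found in the annotation. In total 79 peaks lay within the genes plus 10 kb, and 42 of them were promoter peaks of a listed gene.

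Accessibility was measured by ATAC-Seq, in which a transposase cuts and tags open DNA. The cells were Beko, a mouse pre-T (progenitor T-cell) leukemia line whose Notch pathway is constitutively active. There were 6 libraries, 3 from cells treated for 24 h with DAPT, a γ-secretase inhibitor (GSI) that blocks Notch cleavage, and 3 from cells given DMSO for 24 h. Both groups are the same line, with no genetic modification described, so the data describe 1 line only. The peaks were deposited as a single list merged over the libraries. This list therefore carries no value per library, no replicate error can be given, and GSI was not compared with DMSO. A peak open in some of the cells and a weaker peak open in all of them cannot be told apart. The intervals quoted below are 95% intervals for the number of genes counted (Wilson for shares, order statistics for medians) and do not stand for error between libraries. Among marker genes of the labelled cell type, 8 of the 9 T-lineage genes found in the annotation had a promoter peak (Cd3e, Cd3g, Bcl11b, Tcf7, Gata3, Rag1, Lck and Notch1, but not Cd3d), against 0 of 5 B-lineage and 0 of 5 myeloid genes.

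DNA replication begins with the origin recognition complex, which together with Cdc6 and Cdt1 loads the MCM helicase onto DNA before S phase. A kinase formed by Cdc7 and Dbf4 then triggers the joining of Cdc45 and the GINS complex to the helicase, after which the polymerases copy both strands, held to DNA by the clamp Pcna. Many of these genes are transcribed at the entry into S phase from promoters bound by E2F factors, and the dividing progenitors of the T lineage depend on them.

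Sequences are shown first for the 5 promoters whose upstream stretch best displays an E2F word. An E2F word was any of TTTCCCGC, TTTCGCGC, TTTGCCGC and TTTGGCGC on either strand, searched from 250 bp before to 50 bp after the principal start, the start of the transcript with the longest coding sequence. Each line gives the 150 bases just upstream of the start, free of annotated exons, read 5′ to 3′ in the direction of the gene from mm9, with the E2F word in capitals. Mcm3 lies on the minus strand (chr1:20810360-20810509), as do Mcm4 (chr16:15637494-15637643) and Mcm6 (chr1:130256234-130256383), while Cdc6 (chr11:98769315-98769464) and Gins3 (chr8:98157309-98157458) lie on the plus strand.
Mcm3: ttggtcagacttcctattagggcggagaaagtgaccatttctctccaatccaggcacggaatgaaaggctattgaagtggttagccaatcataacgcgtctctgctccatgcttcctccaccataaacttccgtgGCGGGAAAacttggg
Mcm4: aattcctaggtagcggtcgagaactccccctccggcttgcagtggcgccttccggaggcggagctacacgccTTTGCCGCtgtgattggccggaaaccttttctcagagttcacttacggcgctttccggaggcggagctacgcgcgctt
Mcm6: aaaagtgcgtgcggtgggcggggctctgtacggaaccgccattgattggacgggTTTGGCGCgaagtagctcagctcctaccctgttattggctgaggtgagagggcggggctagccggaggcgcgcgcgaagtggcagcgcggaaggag
Cdc6: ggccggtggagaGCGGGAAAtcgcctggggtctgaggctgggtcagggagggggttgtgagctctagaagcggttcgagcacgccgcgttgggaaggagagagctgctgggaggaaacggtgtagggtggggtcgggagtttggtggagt
Gins3: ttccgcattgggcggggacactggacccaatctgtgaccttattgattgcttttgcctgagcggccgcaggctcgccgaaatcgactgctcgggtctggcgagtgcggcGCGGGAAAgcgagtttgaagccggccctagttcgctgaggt

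Each of the 5 stretches holds 1 E2F word, but at a different distance from the start. In Mcm3 the first base of the word lay 15 bp before the start, in Gins3 41 bp, in Mcm4 78 bp, in Mcm6 96 bp and in Cdc6 138 bp. The letters also show CCAAT boxes on the opposite strand (attgg) between the E2F word and the start of Mcm6 and Mcm4.

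The interval between the starts of a divergent gene pair is shown because 1 peak covers both starts. The interval (chr2:48804797-48805029, 233 bp, minus strand) lies under the second widest promoter peak of the 42 genes and separates Orc4 from Mbd5, which encodes a methyl-CpG-binding domain protein. It is written 5′ to 3′ in the direction of Orc4 and holds no E2F word.
Orc4 to Mbd5: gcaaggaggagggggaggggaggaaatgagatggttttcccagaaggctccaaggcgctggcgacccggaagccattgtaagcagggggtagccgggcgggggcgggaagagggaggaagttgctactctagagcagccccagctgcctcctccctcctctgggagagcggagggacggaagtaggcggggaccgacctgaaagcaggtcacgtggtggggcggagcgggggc

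Promoter accessibility was examined first. Of the 42 replication genes, 40 (95.2%, interval 84.2 to 98.7%) had a promoter peak, against 46.9% of all protein-coding genes. Among the 10006 coding genes with a CpG-rich promoter, as defined below, the share was 76.1%, and among the 1973 with a coding divergent partner it was 84.2%. In each of the 40 genes at least 1 annotated start lay inside a peak, so the count was 40 whether the distance allowed was 0, 500, 1000 or 2000 bp. The principal start itself lay inside the peak in 39 of 40 genes (97.5%), compared with 85.9% of all coding genes with a promoter peak.

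The genes without a promoter peak were Mcm4, a subunit of the helicase ring, and Pcna, the sliding clamp. Mcm4 (chr16:15623990-15637493, minus strand) lay in a peak-free interval of 267652 bp (chr16:15594865-15862516), and the nearest peak was 40496 bp from its closest start. The only other coding start in that interval was that of Prkdc, the catalytic subunit of DNA-dependent protein kinase, which begins 466 bp from Mcm4 in the opposite direction. Both promoters were CpG-rich. Of the 31860 autosomal intervals between neighbouring peaks, 1372 were as long or longer and 355 held at least 2 CpG-rich coding starts. No base within 1 kb of the Mcm4 start was unknown in the build. A search with the 1 kb around the start found no match elsewhere in the genome (length of the longest match 0 bp). The rest of the peak-free interval was not searched in this way, and why Mcm4 had no listed peak was not tested.

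Pcna differed from Mcm4 in having close peaks on both sides. Its peak-free interval was 14387 bp (chr2:132073898-132088284), and the nearest peak lay 2009 bp from its closest start. The flanking peaks were a 706 bp peak at a start of 5730494N06Rik and a 1134 bp peak at the start of Cds2. The 1 kb around the principal start of Pcna had a match of 354 bp elsewhere in the genome, the second longest among the 42 genes after Lig1 with 444 bp, and Lig1 had a promoter peak. The part of repeated sequence in the missing Pcna peak was not tested. Because the list gives no signal, Mcm4 and Pcna can only be said to have no listed peak, not to be closed.

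Gins1 and Lig1 had 2 promoter peaks each (4.76% of the 42 genes, against 5.73% of all coding genes). Gins1, a subunit of the GINS complex, had a 797 bp peak at its coding start (chr2:150735138-150735934) and an 813 bp peak centred 4889 bp upstream of that start (chr2:150730035-150730847), which lay within 1 kb of another start of Gins1 and of a start of Abhd12. Lig1, which seals nicks between lagging-strand fragments, had a 1072 bp peak at its principal start (chr7:13863594-13864665) and a 797 bp peak at an inner start (chr7:13887793-13888589).

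**Figure D1:**
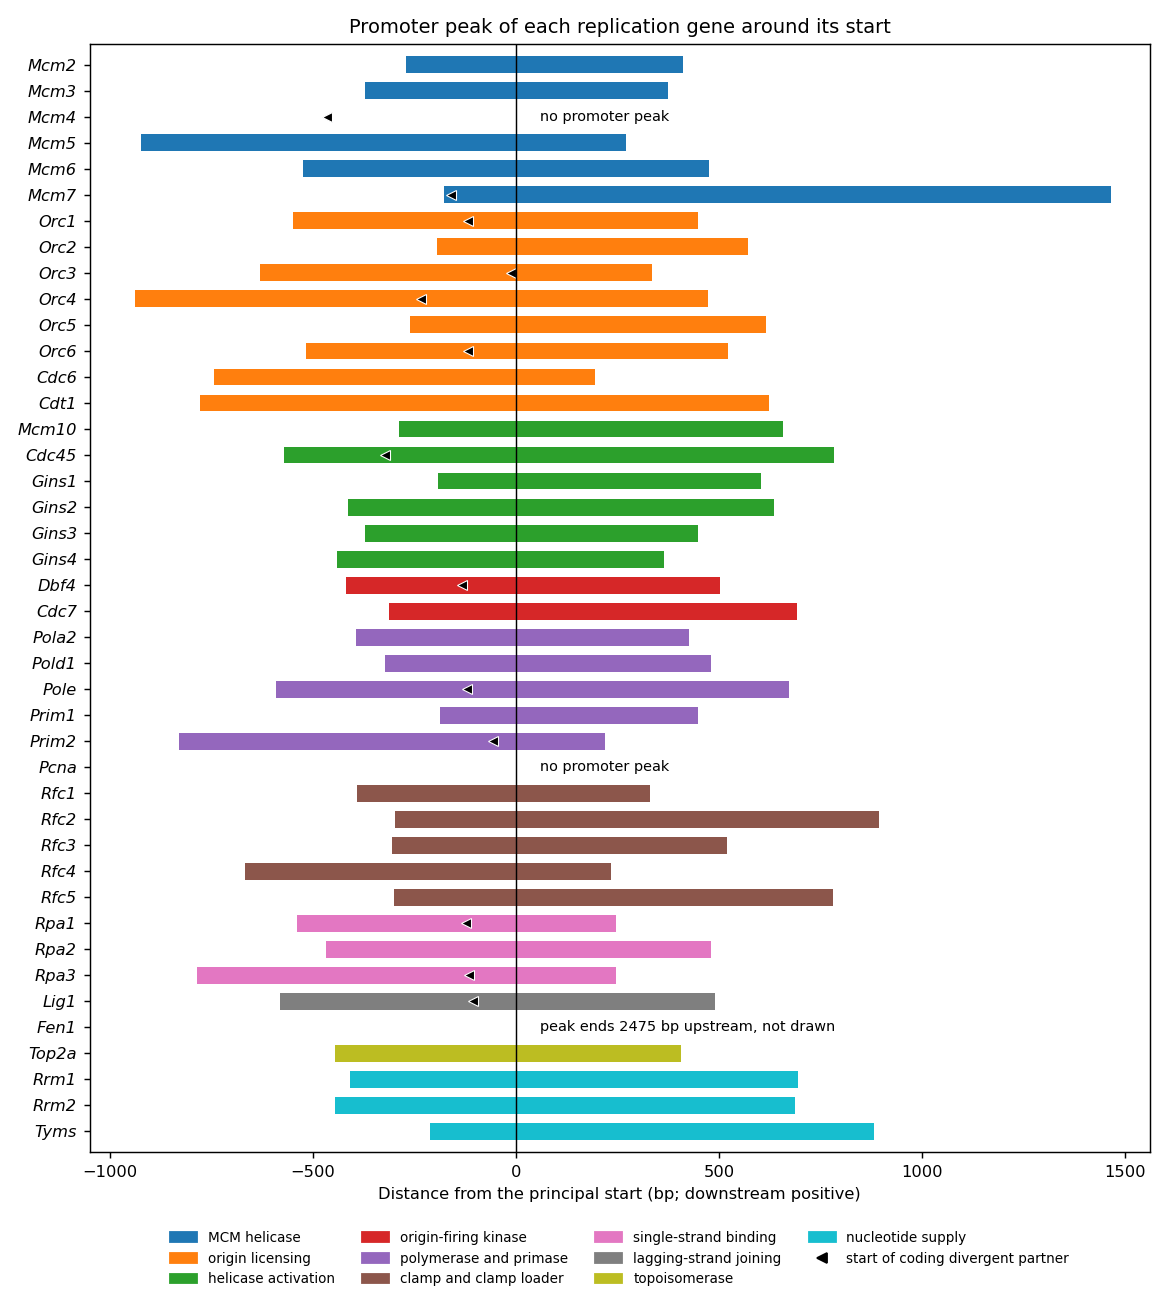
Extent of the promoter peak of each of the 42 replication genes, as distance in bp from the principal start (0, downstream positive), coloured by role, with black triangles at the start of a coding divergent partner. Of the 40 peaks, 39 cover the principal start; Mcm4 and Pcna have none, and the peak of Fen1 ends 2475 bp upstream of its principal start.

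The peaks were then compared in width. The median promoter peak of the replication genes was 982.5 bp wide (interval 877 to 1052 bp, n = 40), with quartiles at 821 and 1096 bp. The median was 915 bp over all coding genes with a promoter peak (quartiles 729 and 1121 bp) and 962 bp over those with a CpG-rich promoter, both within the interval of the replication genes. Peaks of at least 1000 bp were found at 18 of 40 replication genes (45.0%), at 38.5% of all coding genes with a promoter peak and at 44.5% of the CpG-rich ones. The lower quartile of the replication genes lay above that of all coding genes and the upper quartile below it, so their quartiles lay closer together. No interval was computed for the quartiles, and they were not compared with those of the CpG-rich genes.

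The widest peak belonged to Mcm7, a helicase subunit, with 1644 bp (chr5:138612185-138613828), of which 1465 bp lay downstream of the start. Next were Orc4, a subunit of the origin recognition complex, with 1412 bp (chr2:48804324-48805735) and Cdt1, which brings the helicase to origins, with 1401 bp (chr8:125091137-125092537). The narrowest were those of Prim1, the catalytic primase subunit, with 635 bp (chr10:127452041-127452675), Mcm2 with 683 bp (chr6:88848362-88849044) and Rfc1, the large subunit of the clamp loader, with 722 bp (chr5:65726473-65727194). Within the MCM helicase alone the widths thus ran from 683 to 1644 bp.

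By role, the median width was 999 bp for the MCM helicase (n = 5), 982.5 bp for origin licensing (n = 8), 883.5 bp for helicase activation (n = 6), 820 bp for the polymerases and primase (n = 5) and 902 bp for the clamp loader (n = 5). The peaks of the ribonucleotide reductase subunits Rrm1 and Rrm2 and of thymidylate synthase (Tyms), which make deoxynucleotides, were alike in width, at 1106, 1134 and 1093 bp. The 3 RPA genes ran from 786 to 1033 bp, and the kinase genes Cdc7 and Dbf4 had 1004 and 923 bp. Widths like those of the nucleotide supply genes were also found in other roles, such as Lig1 with 1072 bp and Fen1 with 1135 bp. Across the 40 genes, the Spearman correlation of width with the CpG ratio was -0.05 and with GC content 0.24. Over the 10506 coding genes with a promoter peak the values were 0.36 and 0.37, and the points of both sets share the base composition of their regions.

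Of the 39 peaks that covered the principal start, the median reach was 420 bp upstream and 481 bp downstream, against 402 and 476 bp over all coding genes. The peak reached farther upstream than downstream in 15 of 39 replication genes (38.5%) and in 42.2% of all coding genes. The centre of the peak lay at a median of 37 bp downstream of the start, compared with 32 bp over all coding genes.

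**Figure D2:**
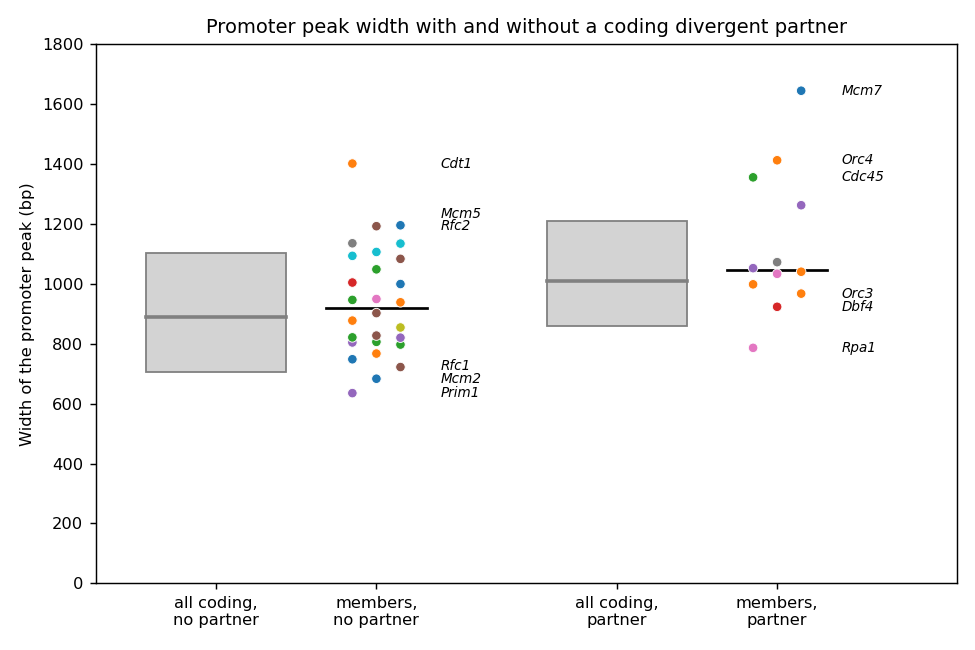
Width of the promoter peak in bp for genes without and with a coding divergent partner, with grey boxes for the quartiles and grey lines for the median of all protein-coding genes, and points coloured by role with a black median line for the replication genes. The median rises from 920 to 1046 bp in the replication genes and from 890 to 1009 bp in all coding genes.

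Base composition was measured over the 1 kb centred on the principal start. A promoter was called CpG-rich when the ratio of observed to expected CpG was at least 0.6 and the GC content at least 50%. This held for 33 of 42 replication genes (78.6%, interval 64.1 to 88.3%), against 44.7% of all coding genes. Among the 10506 coding genes with a promoter peak, as 40 of the 42 replication genes had, 7615 were CpG-rich. The median CpG ratio was 0.799 in the replication genes, 0.554 in all coding genes and 0.798 in CpG-rich coding genes with a promoter peak. The median GC content differed from that last set, with 56.5% in the replication genes and 61.6% in the CpG-rich accessible genes, and was close to the 55% of all coding genes. Over the peaks themselves, the GC content had a median of 58.0% in the replication genes, 61.7% in all coding genes with a promoter peak and 63.2% in the CpG-rich ones of these, at CpG ratios of 0.778, 0.763 and 0.806.

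The highest CpG ratio was that of Cdc7, the origin-firing kinase, with 0.958, and the highest GC content that of its activator Dbf4, with 70.7%. The 6 genes of the clamp and its loader were all CpG-rich, as were the 3 subunits of the single-strand binding protein RPA. Among the 6 helicase activation genes only Gins2, Gins3 and Gins4 were.

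Of the 9 promoters that were not CpG-rich, Cdc45 and Gins1 had ratios of 0.804 and 0.724 and missed only the limit on GC content, at 48.9 and 47.6%. Mcm2 (ratio 0.598), Mcm7 (0.558), Orc4 (0.566) and Tyms (0.543) missed only the limit on the ratio, with GC contents from 52.3 to 62.2%. Mcm10, which stabilises the active helicase, and Prim1 missed both limits, with ratios of 0.598 and 0.587 and GC contents of 47.8 and 47.5%. Just inside the limit was Orc5, with a ratio of 0.610 and a GC content of 51.2%. Fen1, which trims the flaps of lagging-strand fragments, had the lowest ratio, 0.331, but its principal start is an inner one and its peak (chr19:10278043-10279177) covers the upstream starts of the gene instead. Over the peak itself, 37 of 40 replication genes (92.5%) met both limits, compared with 79.3% of all coding genes with a promoter peak.

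**Figure D3:**
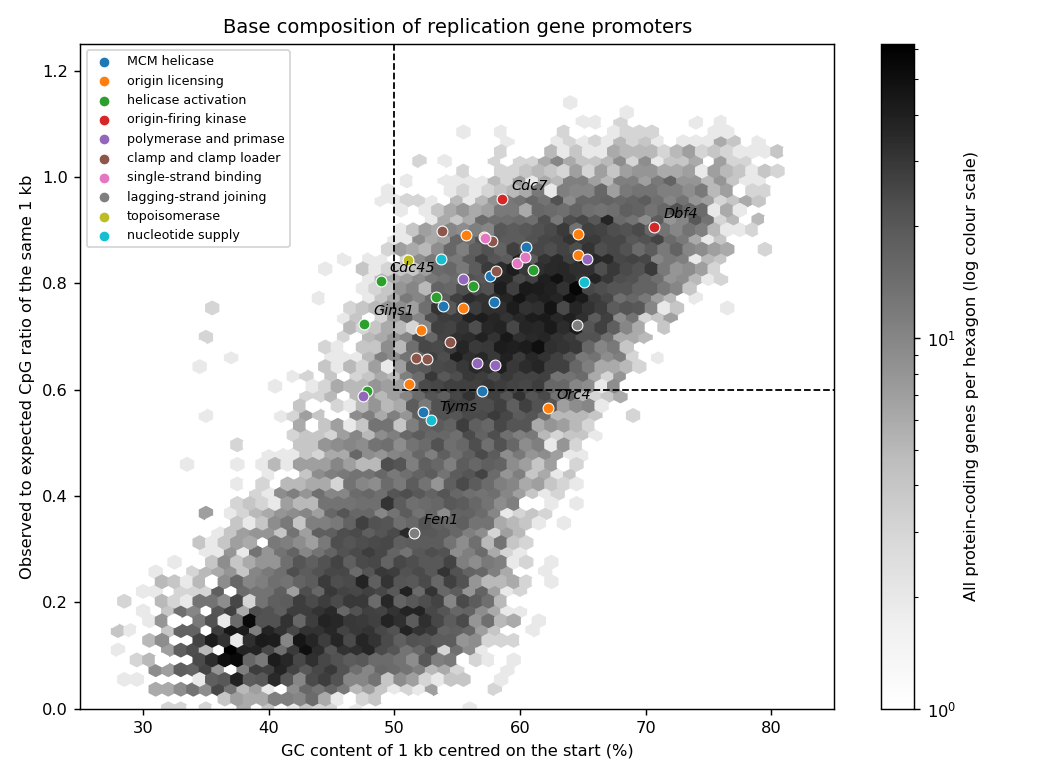
Observed to expected CpG ratio against GC content (%) of the 1 kb around the start, with all protein-coding genes as grey hexagons and the 42 replication genes as points coloured by role; dashed lines mark the limits of 0.6 and 50%. 33 points lie in the upper right field, and Fen1 lies lowest at a ratio of 0.331.

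Divergent partners were defined as genes on the opposite strand that start within 1 kb upstream of the principal start. A protein-coding partner was found for 13 of 42 replication genes (31.0%, interval 19.1 to 46.0%), against 8.82% of all coding genes. The share was 16.3% among CpG-rich coding genes and 18.9% among those that also had a promoter peak. Counting partners of any kind, 18 of 42 replication genes (42.9%) had 1, compared with 11.5% of all coding genes. The distance between the starts had a median of 120 bp in the 13 pairs and of 145 bp in all coding pairs.

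In the helicase, Mcm7 lay 160 bp from Ap4m1, a subunit of an adaptor complex in vesicle traffic, and Mcm4 lay 466 bp from Prkdc, the longest distance of the 13. In the origin recognition complex, 4 of the 6 subunits had a coding partner. Orc3 lay 13 bp from Rars2, a mitochondrial arginyl-tRNA synthetase, which was the shortest distance. Orc1 lay 118 bp from the splicing factor gene Prpf38a, Orc6 119 bp from the retromer gene Vps35 and Orc4 234 bp from Mbd5. The other 2 subunits, Orc2 and Orc5, had lincRNA partners, Gm15834 at 39 bp and 1700030G06Rik at 62 bp, so that all 6 Orc genes had a divergent partner of some kind.

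Of the genes that act after licensing, Cdc45 lay 322 bp from Ufd1l, which acts in the removal of ubiquitinated proteins, Dbf4 134 bp from the mitochondrial carrier gene Slc25a40 and Pole, the catalytic subunit of DNA polymerase ε, 120 bp from Pxmp2, which encodes a peroxisomal membrane protein. The primase subunit gene Prim2 lay 57 bp from 1700001G17Rik, Rpa1 123 bp from Smyd4, Rpa3 115 bp from Gm16039 and Lig1 105 bp from 6330408A02Rik. Non-coding partners were found for Gins2 (Gm10614 at 227 bp), Rfc5 (Gm15728 at 92 bp) and Pcna (AV099323 at 43 bp). No partner was found for any of the nucleotide supply genes or for Top2a, the topoisomerase that separates the daughter DNA molecules.

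A single peak covered both starts in 12 of the 13 coding pairs (92.3%), with Mcm4 and Prkdc as the exception. Over all coding genes with a coding partner the share was 77.2%, and over the CpG-rich accessible ones 95.2%. This last share counts only genes with a promoter peak, and on that basis it was 12 of 12 in the replication genes. The median width was 1046 bp at the 12 replication genes with a coding partner (interval 967 to 1355 bp) and 920 bp at the 28 without (interval 820 to 1048 bp), with overlapping intervals, and over all coding genes it was 1009 bp with a partner and 890 bp without. In the replication genes the difference lay on the partner's side, where the median upstream reach was 576 bp with a partner and 373 bp without, while the downstream reach was 481 bp in both groups. The corresponding upstream values of all coding genes were 571 and 371 bp. The peak of Mcm7 went against this, reaching 178 bp upstream and 1465 bp downstream.

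The surroundings of the genes were examined next. A distal peak, more than 1 kb from every annotated start of any gene, lay within the gene or 10 kb on either side in 15 of 42 replication genes (35.7%), against 37.7% of all coding genes, a share near the background. There were 24 such peaks, or 1.20 per 100 kb searched, compared with 1.18 for all coding genes and 1.63 for CpG-rich coding genes with a promoter peak. A promoter peak of another gene that was not also a promoter peak of the gene itself lay in the same range for 10 of 42 genes (23.8%), against 22.4%. In 18 genes, among them Mcm3, Mcm5 and Top2a, the only peak in range was the promoter peak. No share over all coding genes is given for this count, so it is not read as particular to these genes.

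The most distal peaks were found at Prim2, with 5, all in introns of a gene of 215976 bp and from 22469 to 105729 bp downstream of the start. Rrm2, the regulated subunit of ribonucleotide reductase, had 4 in a gene much shorter than that. They were centred 1250 bp upstream of its start (chr12:25391689-25392024), 2105 bp downstream in an intron (chr12:25395060-25395363), and beyond the gene at 8859 bp (chr12:25401766-25402165) and 15486 bp (chr12:25408237-25408947). Pola2, the B subunit of DNA polymerase α, and Prim1 had 2 each. Those of Pola2 were in an intron (chr19:5956708-5957099) and 1201 bp upstream of the start (chr19:5965212-5965603). Those of Prim1 both lay upstream (chr10:127441971-127442445 and chr10:127445279-127445773).

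Of the 24 distal peaks, 8 were in introns, 1 was in an exon, of Rpa2, 6 were upstream and 9 downstream of the gene. In 5 cases the centre of the peak lay within another coding gene, namely Dars near Mcm6, Rara near Cdc6, Gm20388 near Gins2, Spib near Pold1 and Lat2 near Rfc2. The distal peaks had a median width of 439.5 bp (quartiles 389 and 501 bp), against 465 bp for all 21005 distal peaks (quartiles 385 and 617 bp). The upper quartile was thus lower near the replication genes. Their distal peaks had a median CpG ratio of 0.198, far below that of the promoter peaks.

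Short sequence words known from cell-cycle and housekeeping promoters were counted from 250 bp before to 50 bp after the principal start, on both strands. An E2F word was found in 13 of 42 replication genes (31.0%, interval 19.1 to 46.0%), against 2.80% of all coding genes and 5.12% of CpG-rich coding genes with a promoter peak. Dropping the first letter of each word gave 22 of 42 (52.4%) against 11.8 and 21.2%. The 13 genes were Mcm3, Mcm4, Mcm5 and Mcm6 of the helicase, Orc1, Orc3, Cdc6 and Cdt1 of licensing, Gins1 and Gins3, Pole, the clamp loader gene Rfc3, and Lig1. Mcm4 thus carried E2F words without a listed peak, and in the other 12 genes every E2F word lay inside the promoter peak. This was not particular to E2F. All 30 ETS, 47 CCAAT and 54 SP matches, described below, also lay inside the peak in replication genes with one. Peaks that covered the start reached at least 178 bp of the 250 bp searched upstream.

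The position of the words varied. Mcm3, Mcm4, Mcm5, Mcm6 and Rfc3 had 2 separate E2F sites, with words that overlap counted as 1 site. In Mcm5 an overlapping pair of words began 172 and 168 bp before the start and a further word 33 bp after it. Mcm6 had a similar overlapping pair at 159 and 155 bp before the start, beyond the stretch printed above, and Gins1 had 1 at 9 and 5 bp before it. In Cdt1, Pole, Rfc3 and Lig1 the words lay only downstream, between 24 and 37 bp after the start. Of the 21 matches in all, 14 began upstream and 7 at or after the start.

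The CCAAT box bound by NFY was present in 25 of 42 replication genes (59.5%), against 37.6% of all coding genes and 38.3% of the CpG-rich accessible ones. All 6 helicase activation genes and all 3 RPA genes had 1. Top2a, singled out after its values were seen, had 6, centred from 225 to 56 bp before the start, and no E2F or ETS word. The ETS word CCGGAA was found in 23 of 42 genes (54.8%), against 17.8 and 34.3%, and 45.1% of accessible coding genes with a coding partner held it. This difference depended on the window. In the central 200 bp of the promoter peak only 7 of 40 replication genes (17.5%) held the ETS word, against 21.8% of all coding genes with a promoter peak. Of the 30 ETS matches in replication genes with a peak, all lay inside the peak but only 4 within 100 bp of its centre, compared with 9 of 19 E2F matches and 17 of 47 CCAAT matches.

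At least 1 of the E2F, ETS and CCAAT words was present in 37 of 42 replication genes (88.1%). The share was 50.1% in all coding genes and 62.2% in CpG-rich coding genes with a promoter peak. It was 67.7% in coding genes with a coding partner and 77.5% (31 of 40) in the other replication genes described below. Each of these words was already more frequent in the replication genes than in all coding genes when counted alone. The joint share is therefore not a separate result. The 5 replication genes with none were Cdc7, Pola2, Pold1, Pcna and Fen1. Pold1 is the catalytic subunit of DNA polymerase δ, and for Fen1 the window lay at the inner start and not at the peak. All members of the MCM helicase, of origin licensing and of helicase activation had at least 1.

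**Figure D4:**
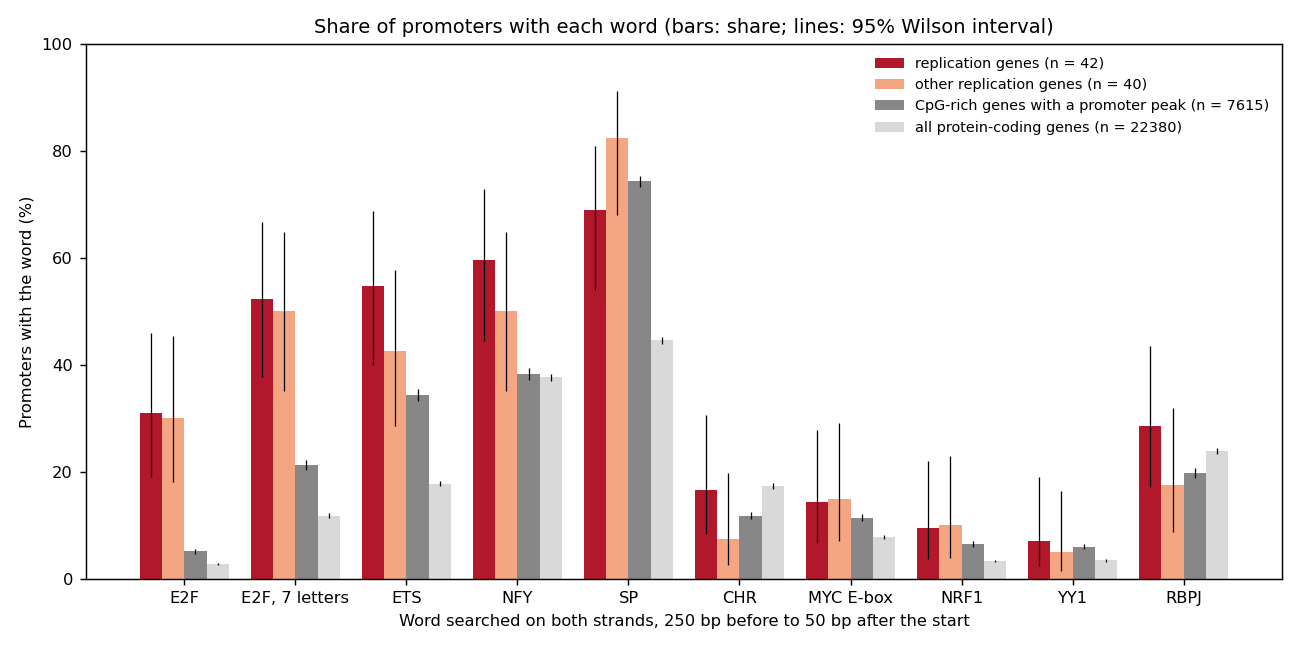
Share of promoters (%) that hold each word, for the 42 replication genes, 40 other replication genes, CpG-rich genes with a promoter peak and all protein-coding genes, with 95% Wilson intervals as lines. The E2F bars stand at 31.0, 30, 5.12 and 2.80%, while the CHR, MYC E-box, YY1 and RBPJ intervals of the replication genes include the value of all coding genes.

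GGGCGG, the SP word, was found in 29 of 42 genes (69.0%), against 44.6% of all coding genes and 74.3% of the CpG-rich accessible ones. CHR words (TTTGAA or TTCGAA), known from genes of the late cell cycle, were found in 7 genes (16.7%), against 17.4% of all coding genes. The E-box CACGTG was found in 6 (14.3%, interval 6.72 to 27.8%, against 7.74%). The NRF1 word GCATGCGC was found in 4 (9.52%, interval 3.77 to 22.1%, against 3.32%) and the YY1 word AAGATGGC in 3 (7.14%, interval 2.46 to 19.0%, against 3.43%). The E-box and YY1 intervals thus included the value of all coding genes. The core TGGGAA of RBPJ, the factor through which Notch acts, was found in 12 genes (28.6%, interval 17.2 to 43.6%) against 24.0%. These matches are descriptions of letters and not of binding.

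**Figure D5:**
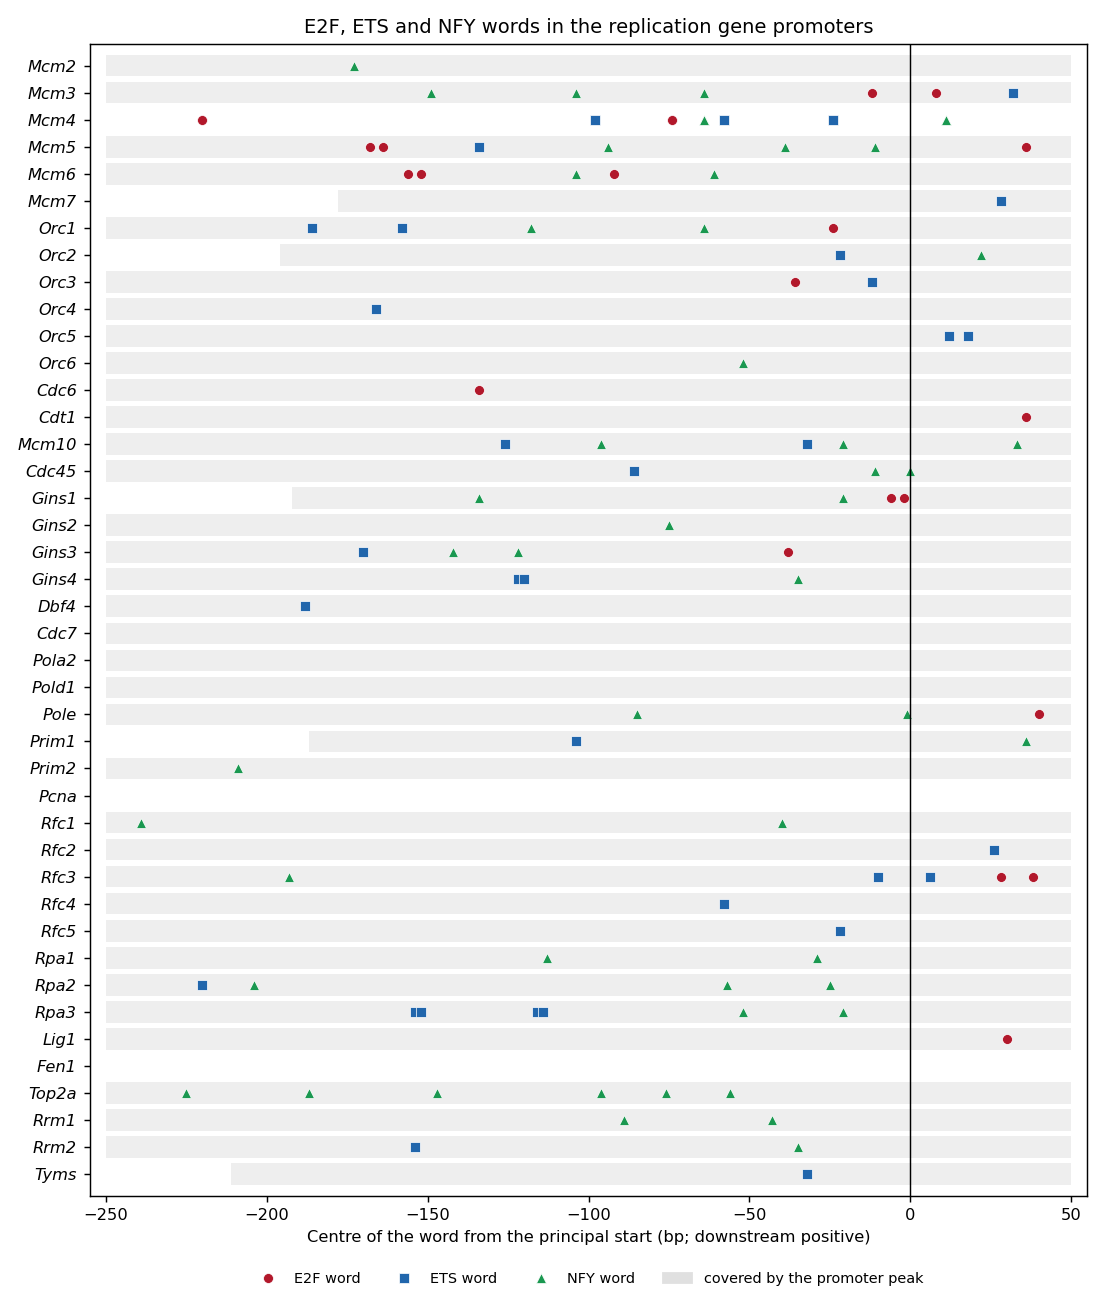
Centre of each E2F, ETS and NFY (CCAAT) word in the 42 replication gene promoters, in bp from the principal start, with grey bars where the promoter peak covers the window. E2F words lie on both sides of the start, Top2a has 6 CCAAT boxes and no other of these words, and 5 genes have none.

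A further list of 40 replication genes that are not among the 42 was described in the same way, among them the other polymerase subunits, the fork protection factors Timeless and Tipin, the licensing inhibitor Gmnn and the chromatin assembly factors Chaf1a and Chaf1b. All 40 had a promoter peak, with a median width of 944 bp, which was 935 bp at the 10 with a coding partner and 954 bp at the 30 without. CpG-rich promoters were found in 36 (90.0%), a coding divergent partner in 10 (25%) and an E2F word in 12 (30%). The partner of the helicase-related gene Mcm8 was Trmt6. The E2F words included those of Pola1, Pole2, Gmnn, Timeless, Tipin and Dnmt1.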

How the data were processed

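ATAC-Seq was carried out with a commercial kit on 6 Beko libraries, 3 treated with GSI and 3 with DMSO, grouped by their labels. Per the study's methods and the submitters' notes, the authors trimmed reads, aligned them to mm9 with HISAT2 2.2.1 with a single place kept for each read, and discarded duplicates (Picard). Peaks came from MACS2 in each library, and the authors kept those found in 3 libraries and removed blacklisted regions. A shift of read ends for the transposase is not given in the sources used here. The deposited positions of the peaks, start and end, are in bp, and the deposited score is 0 for every peak. Read depth was not used here, as no value per library exists for it to bear on.

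Starts were read as counted from 0 and are printed from 1. Gene models and sequence came from GENCODE vM1 and NCBIM37, the same build as mm9. The promoter peak was that covering or nearest to the principal start, and all annotated starts were searched. Matches elsewhere were sought with minimap2 2.31, and other steps used Python 3.11.15, numpy 2.4.6, scipy 1.17.1, pysam 0.24.0 and matplotlib 3.10.9. The functions were tested on simulated peaks on 1653 genes of 1 chromosome and gave 0 wrong answers. No test was run on the list. The genes and comparison lists were chosen with earlier results of these data known. Of the comparison list Ticrr, and of the T-lineage markers Ptcra, were not found in the annotation by these names. Named in full were genes with no or several promoter peaks, the 3 widest and narrowest, those with a coding partner, the 3 with most distal peaks (a tie made it 4), those not CpG-rich and those with at least 2 E2F sites. The sequences shown are up to 5 upstream stretches with most E2F words and up to 2 intervals between divergent starts, of which 1 is not reported here.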

Additional observations from a re-analysis of the deposited data

How the results depend on the processing

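No paired analysis was possible because the peaks were deposited merged, without values for any library. For the same reason leaving out a replicate and the comparison of GSI with DMSO were not run. Of 34 other settings, 23 stayed within the interval of the main value or within 1.5 times it. The values that moved were as follows. With peaks of at least 1000 bp, 42.9% of replication genes kept a promoter peak (18.7% of all coding genes). CpG-rich promoters made up 47.6% with limits of 0.75 and 55% (25.5% of all coding genes), 92.5% over the peak itself (79.3%) and 92.9% over 200 bp (49.5%). Distal peaks numbered 24 in the main setting (17264 summed over all coding genes). The number was 14 with a flank of 5 kb (13670), 85 with 50 kb (44175) and 6 among peaks of at least 500 bp (7010). The share with an E2F word was 52.4% with 7 letters (11.8%). In the central 200 bp of the peak it was 17.5% for the ETS word (21.8%) and 40% for CCAAT (22.1%), which rose to 76.2% from 500 bp before to 100 bp after the start (57.1%). The ETS share in the central 200 bp was the only one of these values below that of all coding genes, distal peak counts aside. Moving to the most upstream coding start, an alternative chosen after seeing the data, left 12 genes with a coding partner, since Orc4 and Lig1 lost theirs and Fen1 gained 1. Widths stayed between 920 and 998.5 bp. The precision is limited by the number of genes, and the list gives no depth or signal for any peak.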
